A study of Mus musculus with 66 samples.

Results

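Necdin (Ndn, ENSMUSG00000033585) and 4 neighbours in the imprinted Prader-Willi cluster of mouse chromosome 7, Magel2 (ENSMUSG00000056972), Mkrn3 (ENSMUSG00000070527), Snrpn (ENSMUSG00000102252) and Ube3a (ENSMUSG00000025326), were followed across RNA-seq of mice with spontaneous Rorb mutations. The members, 5 of the 45706 genes in the files, were chosen by the measured level of Ndn, which was higher in the mutants h2, h3 and h4, and by their place in the same cluster. The Ndn values of brain and spinal cord that led to this choice are therefore given as a description, with no test. The neighbours were tested, and so was Ndn in comparisons that used none of the libraries behind the choice.

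Brain hemi-sections and spinal cords gave 48 libraries, taken to come from 24 mice aged 7.9 to 9.6 weeks. The labels name no animal, but brain and cord samples of the same number match in sex and age. Cortex, hippocampus and cerebellum of h5 and DBA/1J mice labelled 7.0 weeks old gave 18 libraries. The methods describe h5 brains divided between the hemi-section and the dissected regions, whereas the labelled ages differ (8.4 to 8.7 weeks for the h5 hemi-sections), so whether the regions share animals with the hemi-sections was not settled. Rorb encodes a retinoic acid receptor-related nuclear receptor, and all mutant lines share a high-stepping gait. The mutants were homozygous and were written h1/h1 to h5/h5, with 4 mice each of h2, h3 and h4, 3 each of h1 and h5, and 3 wild-type mice each of C57BL/6J and DBA/1J; the regional libraries held 3 h5 and 3 DBA/1J mice per region. The h1 line carries a duplication of the first Rorb1 exon and sequence upstream of it, on C57BL/6J. The h4 line carries a premature stop codon and h5 a mutation of the start codon of the Rorb1 isoform, while the mutations of h2 and h3 are not known. The paper reports raised read depth upstream of Rorb in h2 as in h1. It also reports weak or failed complementation of h1 with h2 and of h4 with h3, whereas h3 complemented h1 and h2. Only h1 and h5 arose in the strain of their controls: h5 arose on DBA/1J, h2 and h3 on an albino C57BL/6J substrain with the Tyr c-2J allele, and h4 on a B6.129S7 line with a targeted Il1r1 allele. Each line descends from a single spontaneous event, and in h2, h3 and h4 an effect of the Rorb mutation and an effect of the line's background cannot be told apart. The 3 C57BL/6J libraries of a tissue served as controls for h1, h2, h3 and h4 alike. By the labels, C57BL/6J and h1 each had 2 females and 1 male, all aged 8.0 weeks. The h2 mice (3 females, 1 male) were 7.9 to 9.4 weeks old, h3 (1 female, 3 males) 8.0 to 9.6 and h4 (2 females, 2 males) 8.4 to 8.6. DBA/1J mice (1 female, 2 males) were 8.4 to 8.9 weeks old and h5 (2 females, 1 male) 8.4 to 8.7. Each regional group had 2 females and 1 male. Age and sex ratio in h2, h3 and h4 thus also differed from the controls.

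The cluster is a classic imprinted domain. Ndn, Magel2, Mkrn3 and Snrpn are transcribed from the paternal chromosome, under an imprinting centre at the start of Snrpn, and Ube3a is expressed mainly from the maternal chromosome in neurons, where the antisense transcript Snhg14 silences the paternal copy. Loss of the paternal genes is known in Prader-Willi syndrome, loss of maternal UBE3A in Angelman syndrome, and Ndn is abundant in postmitotic neurons.

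On GRCm38, from low to high coordinate, Ube3a lies at chr7:59228750-59310837 (forward strand), Snrpn at chr7:59982495-60450177 (reverse), Ndn at chr7:62348277-62349928 (forward), Magel2 at chr7:62376979-62381640 (forward) and Mkrn3 at chr7:62417593-62420153 (reverse). Ndn, a gene of 1652 bases, is 27.1 kb from Magel2, and Magel2 is 36 kb from Mkrn3, whereas 1.9 Mb separate Ndn from Snrpn. The 250 bases before the annotated starts of the 3 genes that lie side by side are shown because these genes lie closest to each other while their estimates differed, as described below. The sequences are those of RefSeq on GRCm38.p6, written 5′ to 3′ on the gene's strand, and capitals mark CGCATGCG, where the motif GCATGCG, a core of the sites bound by the nuclear respiratory factor NRF1, was found on both strands and its overlapping matches were joined.
Ndn, chr7:62348027-62348276, forward strand: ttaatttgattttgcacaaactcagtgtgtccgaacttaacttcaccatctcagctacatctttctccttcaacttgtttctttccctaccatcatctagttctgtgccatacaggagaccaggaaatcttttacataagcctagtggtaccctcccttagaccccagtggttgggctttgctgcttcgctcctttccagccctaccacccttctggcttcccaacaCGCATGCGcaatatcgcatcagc
Magel2, chr7:62376729-62376978, forward strand: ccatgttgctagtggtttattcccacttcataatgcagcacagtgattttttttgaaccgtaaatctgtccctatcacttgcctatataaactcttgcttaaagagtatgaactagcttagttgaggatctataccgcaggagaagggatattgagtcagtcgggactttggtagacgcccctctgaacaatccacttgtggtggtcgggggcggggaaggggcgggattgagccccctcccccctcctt
Mkrn3, chr7:62420154-62420403, reverse strand: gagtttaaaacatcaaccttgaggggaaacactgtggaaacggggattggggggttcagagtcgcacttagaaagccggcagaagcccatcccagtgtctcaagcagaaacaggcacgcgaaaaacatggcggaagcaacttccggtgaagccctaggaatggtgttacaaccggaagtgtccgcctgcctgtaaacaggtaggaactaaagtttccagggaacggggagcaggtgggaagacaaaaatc
In the Ndn window the match began 23 bases before the start. The windows of Magel2, Mkrn3 and Ube3a held no such letters, and of 4 annotated starts of Snrpn, 3 had a match and the one at chr7:60005200-60005449 had none. The same letters occurred in 992 of 32851 promoter windows of this length (3.02%). The Ndn window held 5 CpG dinucleotides, that of Magel2 7, that of Mkrn3 10 and that of Ube3a 24, beside a median of 6 over all windows. These are matches of letters in the reference and not measured binding or methylation.

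Expected counts, the reads per gene as estimated by RSEM, totalled 32889755 to 59120536 per library, and levels below are in TPM, a transcript abundance that RSEM scales for length and depth. Snrpn was the most abundant member, with 510.3 to 727.3 TPM over the 66 libraries, followed by Ndn with 116.2 to 262.1 TPM and Ube3a with 31.4 to 66.3 TPM. Magel2 ranged from 0.050 to 4.50 TPM and Mkrn3 from 0.47 to 4.41 TPM. The counts behind the low members were small, 4 to 496 reads for Magel2 and 23 to 189 for Mkrn3, against 2928 to 10180 for Ndn, so the low members carried wider errors. Estimated counts of Ndn, Magel2, Mkrn3 and Ube3a were whole in all 66 libraries, while those of Snrpn were whole in 0 of 66. Counts of Snurf, which lies within the Snrpn span, were whole in 1 library and those of the gene model Gm38393 in 0. RSEM gives fractional counts where reads are divided between genes, and which genes shared the Snrpn reads was not tested. Ube3a lies antisense to Snhg14, and the methods name RSEM's default parameters, which take no account of strand, so reads of the antisense partner over Ube3a exons could not be told apart under that setting. Tissue identities followed the labels, with Hoxb8 at 78.8 to 105.0 TPM in spinal cord and at most 5.97 TPM in brain. Brain DBA/1J replicate 1 stood apart, with Gabra6, a cerebellar granule cell gene, at 0.16 TPM and Pcp2, a Purkinje cell gene, at 0.40 TPM. The next lowest Gabra6 levels among brains were 42.9 and 58.6 TPM, in h4 replicates 3 and 4. In addition, 3 of the 66 libraries, the cortex, hippocampus and cerebellum of h5 replicate 3, carried Y-linked expression although labelled female. Rorb itself averaged 11.9 TPM in C57BL/6J brain, 7.57 in h1, 6.19 in h2, 11.4 in h3 and 3.07 in h4. A relation of Ndn to Rorb was not tested.

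Ndn, a MAGE-family protein that restrains the cell cycle and supports survival in neurons, was measured at 140.4, 146.4 and 125.1 TPM in the 3 C57BL/6J brains. The h1 brains gave 116.2, 153.2 and 134.0 TPM. The h2 brains gave 212.4, 196.7, 227.8 and 240.3 TPM. All h2 libraries lay above every library of C57BL/6J and h1, and the h1 values spanned those of the controls. The h3 brains gave 220.0, 227.1, 226.4 and 221.6 TPM, and the h4 brains 237.2, 193.1, 207.2 and 193.4 TPM. Across the 12 brains of h2, h3 and h4 the range was 193.1 to 240.3 TPM, with a median of 220.8, and across the 6 brains of C57BL/6J and h1 it was 116.2 to 153.2 TPM, with a median of 137.2, so that the sets did not overlap. Tissue was analysed in bulk, in which more cells expressing Ndn and more Ndn RNA per cell cannot be told apart.

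The spinal cord gave the same order of groups for Ndn. The 3 C57BL/6J cords were at 159.3, 150.3 and 166.8 TPM, and the h1 cords at 149.4, 158.7 and 150.4 TPM. The h2 cords were at 226.4, 220.9, 212.8 and 221.6 TPM. The h3 cords were at 241.9, 246.7, 209.6 and 216.4 TPM and the h4 cords at 215.4, 211.5, 213.7 and 198.2 TPM. The lowest library of h2, h3 and h4, at 198.2 TPM, was again above the highest of C57BL/6J and h1, at 166.8 TPM. The brain and cord of a mouse are not independent, since the same animals gave both.

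**Figure D1:**
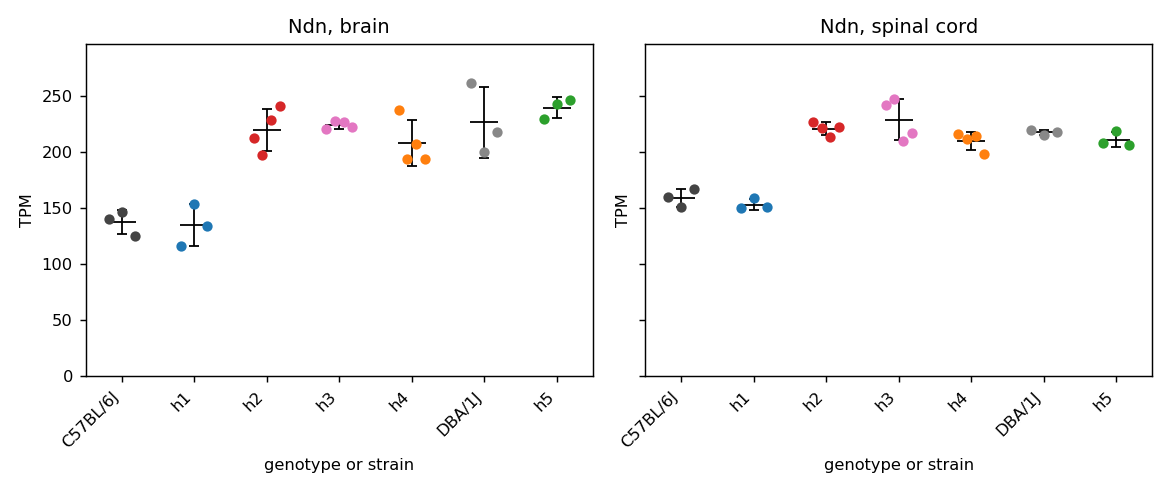
Ndn level in TPM (vertical axis, from 0) in each brain and spinal cord library, by group (horizontal axis), with 1 point per library, a line at the group mean and bars of 1 SD. In brain, h2, h3 and h4 lie between 193.1 and 240.3 TPM, above the 116.2 to 153.2 TPM of C57BL/6J and h1, while DBA/1J and h5 lie between 199.7 and 261.2 TPM.

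On the log2 scale, the edgeR estimate for Ndn in brain was 0.70 (SE 0.08) for h2, 0.72 (SE 0.06) for h3 and 0.65 (SE 0.08) for h4 against C57BL/6J, that is 1.62-, 1.65- and 1.57-fold. In spinal cord the estimates were smaller, 0.46 (SE 0.03), 0.54 (SE 0.05) and 0.42 (SE 0.04), or 1.38-, 1.46- and 1.34-fold. The difference between the cord and brain estimates was −0.24 (SE 0.09) for h2, −0.17 (SE 0.07) for h3 and −0.22 (SE 0.09) for h4. For h1 the estimates were −0.01 (SE 0.08) in brain and 0.02 (SE 0.04) in cord, and for h5 against DBA/1J 0.01 (SE 0.09) and −0.05 (SE 0.04). With h1 as the reference, which carries a Rorb mutation on the C57BL/6J background, Ndn was higher by 0.71, 0.73 and 0.66 in brain and by 0.44, 0.52 and 0.40 in cord, for h2, h3 and h4 in that order. Over 45 fits per tissue with other settings, the estimates for h2, h3 and h4 stayed within 0.59 to 0.78 in brain and 0.39 to 0.57 in cord.

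These contrasts differed widely in how many of all genes passed an adjusted p of 0.05. In brain, against the strain control, the share was 0% for h1, 0.136% for h2, 0.164% for h3, 0.703% for h4 and 0% for h5. In cord it was 0.289%, 2.09%, 1.01%, 1.75% and 0.00581% in the same order. Against h1, the shares for h2, h3 and h4 were 0.017%, 0.0394% and 0.14% in brain and 0.921%, 0.519% and 0.32% in cord. For h5 in the regions they were 0% in cortex, 0.0118% in hippocampus and 0.012% in cerebellum. The shares for the difference between cord and brain effects were 0%, 0%, 0%, 0.0054% and 0% for h1 to h5. In the contrasts at 0% by edgeR, 745 genes (h1 brain), 1003 (h5 brain) and 1106 (h5 cortex) had an unadjusted p under 0.05, and DESeq2 called 17, 68 and 59. In the interactions at 0%, the genes with an unadjusted p under 0.05 were 689 for h1, 1014 for h2, 918 for h3 and 739 for h5, and DESeq2 called 0, 6, 6 and 2 in the same order.

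The neighbours were tested in the same contrasts. Of 52 tests of Magel2, Mkrn3, Snrpn and Ube3a against the strain control, 0 passed edgeR's quasi-likelihood test at an adjusted p of 0.05, 3 had an unadjusted p under 0.05, and DESeq2 called 3. All of those 3 were Ube3a in spinal cord. Of 24 tests against h1, 0 passed, 0 had an unadjusted p under 0.05 and DESeq2 called 0. Of 20 tests of the difference between cord and brain effects, 0 passed, DESeq2 called 0, and 1 had an unadjusted p under 0.05, that of Ube3a in h4 (difference −0.25, SE 0.09). With the share of all genes called at most 2.09% in these contrasts, a call among 4 genes would be rare at the background rate, and so the sizes and intervals are given below.

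**Figure D2:**
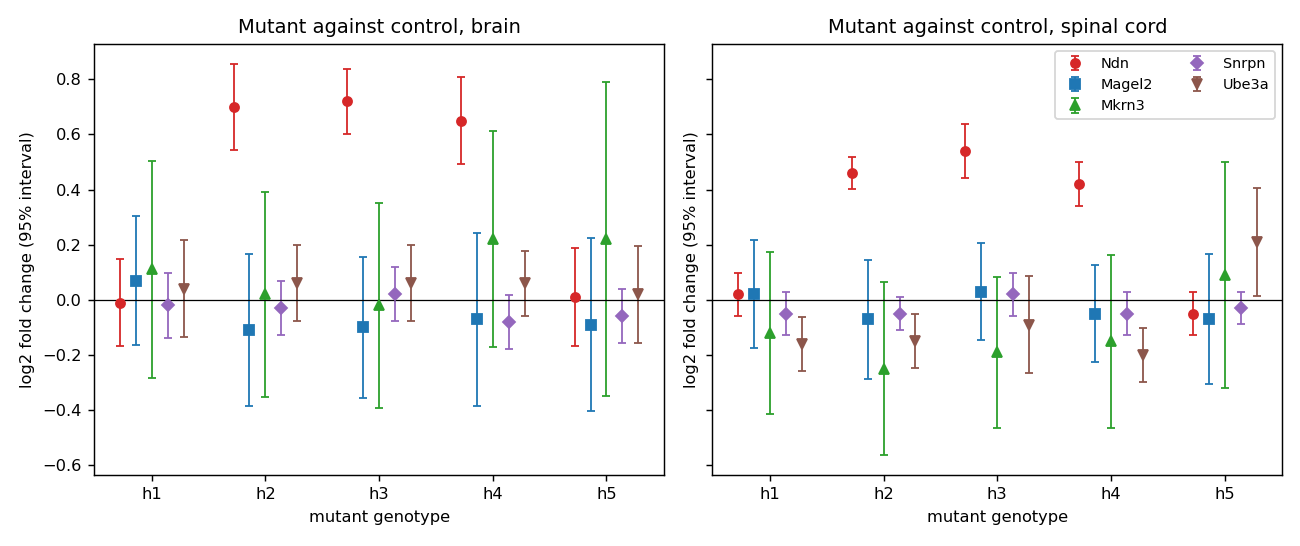
Log2 fold change (vertical axis) of the 5 members against the strain control, in brain and spinal cord, for h1 to h5 (horizontal axis), with bars of the approximate 95% interval from the SE. For h2, h3 and h4 the Ndn points lie at 0.65 to 0.72 in brain and 0.42 to 0.54 in cord, while the 4 neighbours lie between −0.25 and 0.22. Ndn values led to the choice of genes, so the bars on Ndn are a description and not a test.

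Magel2, the other MAGE gene, whose protein works with ubiquitin ligases in protein recycling from endosomes, is the gene closest to Ndn. Brain C57BL/6J libraries held 2.15, 2.06 and 1.95 TPM. The 12 brains of h2, h3 and h4 ranged from 1.45 to 2.40 TPM with a median of 1.92, across the control values. The estimates were −0.11 (SE 0.14), −0.10 (SE 0.13) and −0.07 (SE 0.16) for h2, h3 and h4 in brain. In cord, C57BL/6J gave 2.47, 3.04 and 2.91 TPM, the 12 mutant libraries 2.42 to 3.09 TPM, and the estimates were −0.07 (SE 0.11), 0.03 (SE 0.09) and −0.05 (SE 0.09). The 6 adjusted p-values from edgeR ran from 0.823 to 0.924. The approximate 95% interval (normal, from the SE) reached no higher than 0.25 in brain and 0.20 in cord. The difference between Magel2 and Ndn was not tested.

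Mkrn3, a makorin zinc-finger ubiquitin ligase that holds back puberty, overlapped between groups as well. In brain, C57BL/6J had 1.06, 1.59 and 1.52 TPM and h2, h3 and h4 together 1.17 to 2.05 TPM, with estimates of 0.02 (SE 0.19), −0.02 (SE 0.19) and 0.22 (SE 0.20). In cord, C57BL/6J had 1.96, 2.22 and 2.12 TPM and the 12 mutants 1.32 to 2.33 TPM, with estimates of −0.25 (SE 0.16), −0.19 (SE 0.14) and −0.15 (SE 0.16), and edgeR's adjusted p was 0.505 to 0.992 over both tissues. At these low counts the interval for h4 brain ran from −0.17 to 0.61, so a rise of that size was within the error of that contrast. The cord intervals ended at or below 0.16.

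Snrpn, which encodes the spliceosomal protein SmN, had the narrowest span of estimates among the 4 neighbours. Brain C57BL/6J had 574.5, 669.2 and 642.1 TPM, and the 12 brains of h2, h3 and h4 had 537.4 to 670.6 TPM. Cord C57BL/6J had 584.6, 548.5 and 590.9 TPM, and the 12 mutant cords had 520.8 to 608.6 TPM. All 13 estimates of a mutant against its control lay between −0.08 and 0.02, and for h2, h3 and h4 no interval reached above 0.12. The ratio of Ndn to Snrpn TPM within a library separated the groups: in brain it was 21.9% ± 2.47 (SD, n = 3) in C57BL/6J and 21.98% ± 2.20 (n = 3) in h1, against 36.1% ± 2.43, 35.7% ± 2.45 and 36.1% ± 2.97 (n = 4 each) in h2, h3 and h4. In cord it was 27.6% ± 0.53 and 29.0% ± 0.47 against 39.3% ± 0.49, 39.8% ± 1.18 and 38.3% ± 0.94. This ratio carries the Ndn levels that led to the choice of the genes and is given without a test.

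Ube3a, the ubiquitin ligase of the cluster, was the neighbour with the lowest p-values. In brain, C57BL/6J had 54.7, 50.8 and 52.2 TPM and h2, h3 and h4 had 45.6 to 55.1 TPM, with estimates of 0.06 in each line (SE 0.07, 0.07 and 0.06). Those estimates from counts had the opposite sign to the difference in mean TPM, which is scaled by transcript length as well as depth. In cord, C57BL/6J had 49.4, 49.0 and 48.6 TPM, h2 46.0, 47.2, 42.4 and 48.1 TPM, and h4 42.0, 43.0, 45.3 and 45.4 TPM. Every h1, h2 and h4 cord lay below every C57BL/6J cord, while the h3 cords (50.3, 48.0, 45.1 and 35.3 TPM) overlapped them. The estimates were −0.16 (SE 0.05, edgeR adjusted p = 0.177) for h1, −0.15 (SE 0.05, 0.119) for h2, −0.09 (SE 0.09, 0.728) for h3 and −0.20 (SE 0.05, 0.0638) for h4, all in the direction away from Ndn. DESeq2 gave adjusted p-values of 0.0479, 0.0462 and 0.00804 for h1, h2 and h4. The edgeR call depended on the setting. With no low-count filter the edgeR adjusted p was 0.00353, 0.018 and 0.00353 for h1, h2 and h4, and with the replicate block 0.0156 for h2. It depended on single libraries as well: without C57BL/6J cord replicate 3 the h1 estimate was −0.20 (adjusted p = 0.0312), without h2 cord replicate 4 that of h2 was −0.19 (0.00932), and without h4 cord replicate 3 that of h4 was −0.22 (0.0428). The h1 estimate, beside an Ndn estimate of 0.02 in the same cords, was as large as that of h2.

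**Figure D3:**
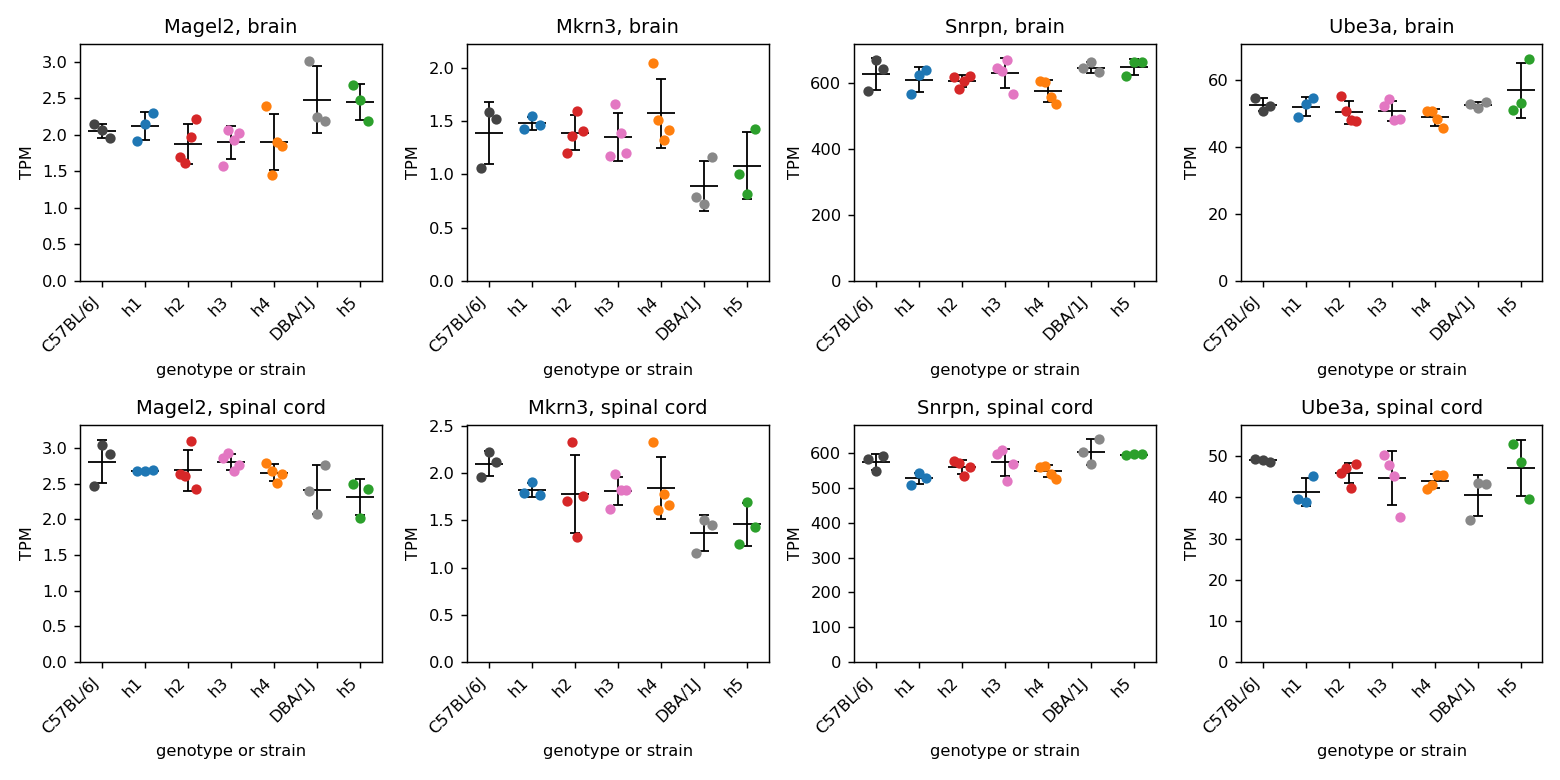
Levels in TPM (vertical axes) of Magel2, Mkrn3, Snrpn and Ube3a in each brain and spinal cord library, by group (horizontal axes), with 1 point per library, a line at the group mean and bars of 1 SD. Magel2 overlaps between C57BL/6J (1.95 to 2.15 TPM in brain) and h2, h3 and h4 (1.45 to 2.40 TPM), and the Ube3a cords of C57BL/6J lie above those of h1, h2 and h4.

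Other transcripts of the domain were read from a list of 14 cluster and flanking genes, of which 11 or 12 were tested per contrast. Against strain controls 0 of 153 tests passed in edgeR, 18 had an unadjusted p under 0.05 and DESeq2 called 1. For h2, h3 and h4 their median log2 change was 0.00, 0.00 and 0.05 in brain and −0.07, −0.03 and −0.04 in cord, beside 0.00 over all genes in each contrast. Snhg14, the long non-coding host of the antisense RNA, was at 0.01 (h2), 0.10 (h3) and 0.12 (h4) in brain, none called. It was lower in h2 than in h1 cord, by −0.24 (SE 0.05, edgeR adjusted p = 0.0236). Snurf, which shares the Snrpn transcript, was at −0.26, −0.35 and −0.12 in brain, also not called. Gm38393, a gene model that stands outside the list, was lower in h2 cord (−0.45, SE 0.11, edgeR adjusted p = 0.0399). In h1, h3 and h4 cord it was at −0.32, −0.24 and −0.49, not called (adjusted p = 0.394, 0.711 and 0.0825), with means of 16.6, 18.95 and 15.5 TPM beside 15.7 TPM in h2 and 22.6 TPM in C57BL/6J. Within 2 Mb of a member there were 48 further genes, of which 15 to 18 were tested per contrast against strain controls. Of their 219 tests, 0 passed in edgeR, 24 had an unadjusted p under 0.05, and DESeq2 called 1.

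Imprinted genes elsewhere in the genome were read in the same contrasts. Of 22 other paternally expressed genes, 18 to 20 were tested per contrast, and 1 of 248 tests against strain controls passed in edgeR, Inpp5f in h2 cord (−0.13), and 4 in DESeq2. Of 21 other maternally expressed genes, 2 of 259 tests passed, Blcap (0.16) and Ddc (0.32), both in h2 cord, and 3 in DESeq2. Among 17 genes of the MAGE family and its partners, 1 of 219 tests passed, Maged2 in h2 cord (0.18), and 2 in DESeq2. In h2 cord, where all of these edgeR calls fell, 2.09% of all genes passed, so counts this small are no result about the lists. Their medians for h2, h3 and h4 lay between −0.05 and 0.07 on the log2 scale.

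Markers of cell types were read beside Ndn over the 13 contrasts against strain controls. Of 179 tests of 14 neuron markers 5 passed, all in cord and lower: Gad1, Gad2 and Syt1 in h2 (−0.19, −0.12 and −0.13) and Gad1 and Syt1 in h4 (−0.19 and −0.20). In brain the neuron medians were 0.01, 0.03 and −0.01 for h2, h3 and h4, and the summed level was 4518 to 5439 TPM in C57BL/6J and 4485 to 5307 TPM in the 12 mutant brains, so the ranges overlapped. In cord the sums were 5165 to 5437 TPM in C57BL/6J, 4785 to 5011 TPM in h1 and 4843 to 5149 TPM in h4, both below every control, and 4930 to 5178 TPM in h2 and 4738 to 5617 TPM in h3, which overlapped the controls. Of 91 tests of 7 endothelium and pericyte markers 9 passed, all lower and all Ly6c1 or Slc2a1 in h2, h3 or h4, such as Ly6c1 at −0.42 in h2 and −0.46 in h4 brain. Their summed level was 235.5 to 265.4 TPM in C57BL/6J brain, 229.0 to 238.9 TPM in h1 and 187.4 to 233.8 TPM in h2, h3 and h4, which lay below the controls as Ndn lay above them. In cord the sums were 252.0 to 269.6 TPM in C57BL/6J, 226.5 to 233.5 TPM in h1 and 206.4 to 244.2 TPM in h2, h3 and h4, so h1 was below the controls as well. Among the glial lists, Olig2 was lower in h2 and h3 cord (−0.27 and −0.44), Aqp4 lower in h2 cord (−0.17), Slc1a3 higher in h4 cord (0.27), and Trem2 higher in h3 cord (0.49). Choroid plexus and meninges markers had 0 of 91 tests called in edgeR (21 at an unadjusted p under 0.05, 2 by DESeq2), and tissue identity markers 0 of 90 (15 and 2). Among the latter, Gabra6 was at 81.4 to 112.0 TPM in C57BL/6J brain, 75.0 to 94.97 TPM in h1, 71.1 to 76.2 TPM in h2, 62.4 to 87.2 TPM in h3 and 42.9 to 83.1 TPM in h4, so that h2 lay below every control. Pcp2 was at 154.0 to 253.4, 158.1 to 216.6, 174.5 to 192.5, 135.5 to 197.3 and 98.9 to 190.9 TPM in the same order, with all mutant ranges overlapping the controls. In replicate order, h2 brains had Gabra6 at 71.1, 74.6, 74.4 and 76.2 TPM beside Ndn at 212.4, 196.7, 227.8 and 240.3 TPM. In h3 brains Gabra6 was at 62.4, 72.5, 87.2 and 74.1 TPM beside Ndn at 220.0, 227.1, 226.4 and 221.6 TPM. In h4 brains Gabra6 was at 83.1, 79.7, 42.9 and 58.6 TPM beside Ndn at 237.2, 193.1, 207.2 and 193.4 TPM. The Ndn estimate in h4 brain was 0.63 without replicate 3 and 0.66 without replicate 4. A relation of Ndn to Gabra6 was not tested. The hypothalamic list, which covers a region rich in Ndn and Magel2, had 1 of 12 tested genes called in h4 brain, Crh (−0.91), with 11 of 12 lower and a median of −0.47, beside medians of 0.02, −0.12 and −0.17 in h1, h2 and h3 brain. Its summed level was 93.6 to 119.5 TPM in C57BL/6J brain, 87.2 to 116.7 TPM in h1, 71.0 to 115.8 TPM in h2, 85.1 to 122.0 TPM in h3 and 70.7 to 113.3 TPM in h4, so every mutant range overlapped that of the controls. The part of any of these in the Ndn level was not tested.

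The wild-type strains are compared in Ndn as a description only, since the C57BL/6J libraries are those behind the choice. DBA/1J brains had 261.2, 199.7 and 217.7 TPM and DBA/1J cords 219.3, 214.4 and 217.5 TPM, all above every C57BL/6J library of the same tissue. The estimate was 0.78 (SE 0.10, 1.72-fold) in brain and 0.44 (SE 0.04, 1.36-fold) in cord. Without DBA/1J brain replicate 1, the library lacking cerebellar genes, the brain value was 0.65. The share of all genes called between the strains was 11.2% in brain and 21.3% in cord. The h2, h3 and h4 libraries (193.1 to 240.3 TPM in brain, 198.2 to 246.7 TPM in cord) overlapped those of DBA/1J and h5 (199.7 to 261.2 TPM and 205.8 to 219.3 TPM), a similarity that was not tested.

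Of 8 tests of the neighbours between the strains 2 passed, Ube3a and Mkrn3 in cord, both lower in DBA/1J. Ube3a was lower in DBA/1J cord (34.6, 43.5 and 43.3 TPM), by −0.37 (SE 0.07, adjusted p = 0.00128), and not called in brain (−0.03). Mkrn3 was lower in cord (1.15, 1.5 and 1.45 TPM), by −0.63 (SE 0.18, 0.0250), a call lost without any C57BL/6J cord or without DBA/1J cord replicate 1 (−0.67, −0.59, −0.64 and −0.52, adjusted p up to 0.0907). In brain Mkrn3 was at −0.59 (SE 0.25, 0.187). Magel2 was at 0.33 in brain (0.16 without DBA/1J brain replicate 1) and −0.22 in cord and Snrpn at 0.10 and 0.06, none called. Snhg14 was lower in DBA/1J by −0.70 in brain (0.000927) and −1.19 in cord (1.47e-05), and Gm38393 by −0.61 (0.00111) and −1.59 (3.19e-05). Within 2 Mb of a member, 5 of 16 further genes passed in brain and 7 of 18 in cord: besides Snhg14 these included Gm5898 (2.43 and 3.11) and Mtmr10 (−0.43 and −0.35) in both tissues, Chrna7 (0.31) in brain, and Fan1 (−0.27), Gabrg3 (−0.24) and Mcee (−0.32) in cord. Against C57BL/6J, h2, h3 and h4 had Snhg14 estimates of −0.21 to 0.12 and Ube3a estimates of −0.20 to 0.06 over both tissues. Whether they differed from DBA/1J in these genes was not tested.

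In the regional libraries, whose Ndn values the choice did not use, Ndn did not pass the test for h5. Cortex had 121.3, 143.6 and 183.6 TPM in DBA/1J and 175.5, 200.2 and 159.6 TPM in h5 (0.18, SE 0.13, adjusted p = 0.791). Hippocampus had 187.1, 233.2 and 209.1 TPM in DBA/1J and 224.7, 256.5 and 262.1 TPM in h5 (0.20, SE 0.08, unadjusted p = 0.0398, adjusted p = 0.997). Cerebellum had 148.6, 153.6 and 145.8 TPM against 153.9, 154.0 and 154.9 TPM (0.03, SE 0.04, adjusted p = 0.962), a small shift without overlap. Without h5 replicate 3, whose label did not match its Y-linked expression, the values were 0.25, 0.18 and 0.03, none called. For h5 brain, leaving out DBA/1J replicate 1 gave 0.13 in place of 0.01.

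**Figure D4:**
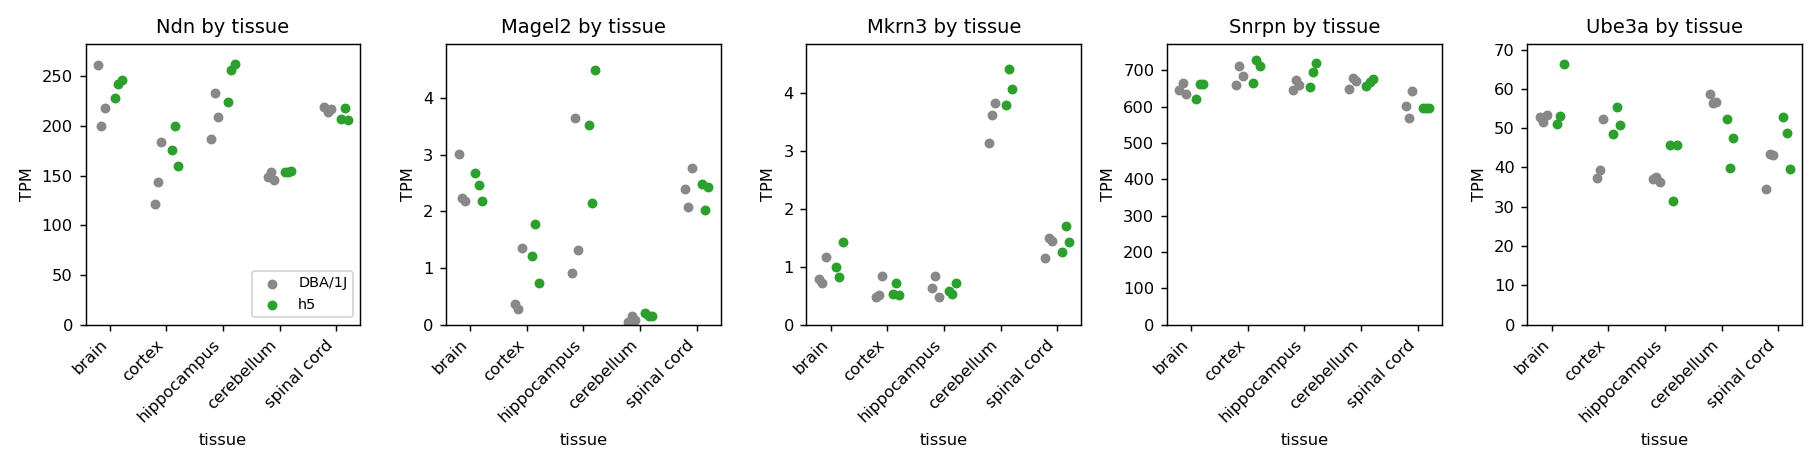
Levels in TPM (vertical axes) of the 5 members in DBA/1J and h5 libraries of brain, cortex, hippocampus, cerebellum and spinal cord (horizontal axes), with 1 point per library. Magel2 is lowest in cerebellum (0.050 to 0.21 TPM), where Mkrn3 is highest (3.13 to 4.41 TPM).

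Brain regions were compared in the wild-type DBA/1J libraries. Magel2 was 7.28-fold lower in DBA/1J cerebellum than cortex (−2.86, SE 0.67, edgeR adjusted p = 0.00473), with 0.050, 0.16 and 0.090 TPM against 0.37, 0.27 and 1.35 TPM, from 4, 15 and 9 reads in cerebellum. The size rested in part on the third of these cortex libraries: without cortex replicate 3 the difference was −1.88, still called. Mkrn3 went the other way and was 4.96-fold higher in cerebellum (2.31, SE 0.24, 3.10e-05), with 3.13, 3.62 and 3.82 TPM against 0.47, 0.51 and 0.83 TPM. Snrpn was slightly lower there (−0.28, SE 0.08, 0.0104), a call lost without cerebellum replicate 1 or 2 (−0.25 and −0.27). Magel2 varied widely within hippocampus, at 0.91, 3.65 and 1.32 TPM in DBA/1J and 3.52, 2.15 and 4.50 TPM in h5, beside summed hypothalamic markers of 36.4, 15.6 and 7.26 TPM and of 22.8, 126.5 and 16.5 TPM in the same libraries. In hippocampus the highest marker sum of each group was in the library with the lowest Magel2, and in cortex it was not. DBA/1J cortex had sums of 33.8, 17.6 and 32.15 TPM beside Magel2 at 0.37, 0.27 and 1.35 TPM. For h5 cortex the sums were 32.5, 58.3 and 12.6 TPM beside Magel2 at 1.22, 1.78 and 0.73 TPM. A relation of Magel2 to these markers was not tested. The Magel2 difference of DBA/1J hippocampus from cortex was 1.53 (SE 0.66, 0.146) and was called, at 2.51 (0.0175), without cortex replicate 3. Ndn was higher in hippocampus than cortex (0.44, SE 0.13, 0.0411), a call held in 1 of 6 fits that each left out a library: it was lost without cortex replicate 1 (0.34) or 2 (0.40) or hippocampus replicate 1 (0.51), 2 (0.37) or 3 (0.46). Between cerebellum and cortex Ndn was at −0.23 (0.111), called without cortex replicate 1 (−0.34, 0.00909). The share of all genes called was 20.6% for hippocampus and 58.1% for cerebellum against cortex.

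Between spinal cord and brain of C57BL/6J, Ndn had an estimate of 0.24 (SE 0.06), given without a test because these libraries led to the choice. Magel2 was higher in cord by 0.47 (SE 0.12, edgeR adjusted p = 0.00367) and Mkrn3 by 0.62 (SE 0.18, 0.0110). Ube3a, at 0.08 (0.339), was called without C57BL/6J brain replicate 3 (0.16, 0.0207). In DBA/1J, Ndn was at −0.09 (SE 0.09, 0.411) and Magel2 at −0.08, neither called, and without brain replicate 1 they were at 0.03 and 0.09, so their direction rested on that library, while Ube3a was lower in cord (−0.25, SE 0.07, 0.0173) and so was Snrpn (−0.13, SE 0.04, 0.0227). The Ube3a call was lost without DBA/1J cord replicate 1 (−0.17) or 3 (−0.25). The Snrpn call was lost without brain replicate 2 (−0.12) or cord replicate 1 or 2 (−0.13 each), and Mkrn3, at 0.59 (0.0858), was called without brain replicate 3 (0.82, 0.0409). Of all genes, 56.9% were called in C57BL/6J and 50.8% in DBA/1J, so a tissue difference in a member was not unusual.

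Across the 20 groups the mean Ndn level rose from 134.5 TPM in h1 brain to 247.8 TPM in h5 hippocampus, and each group's range overlapped that of the next in the order. Pearson correlations of log2 CPM (depth-scaled counts) were computed as a description, over libraries that share groups, tissues and animals. Over all 66 libraries, the 5 genes most like Ndn among 19860 were Wdr6 (r = 0.75), Epb41l4a (0.724), Ahi1 (0.702), Apoe (0.697) and Pnma8b (0.691). Magel2 followed at rank 45 (0.60), whereas Ube3a (0.18), Snrpn (0.06) and Mkrn3 (−0.20) were far down. Over the 36 libraries of C57BL/6J and h1 to h4, with the tissue mean removed, the closest included Rimklb (0.779), Tap2 (0.774), Eif2ak2 (0.74) and Adcyap1r1 (0.73). There Magel2 was at −0.10, Mkrn3 at −0.05, Snrpn at 0.16 and Ube3a at 0.11. In the same 36 libraries, the genes most like Magel2 were Dlk1 (0.767), an imprinted gene of another cluster, Baiap3 (0.751), the hypothalamic factor Otp (0.749), Nrip2 (0.749) and Dgkk (0.74). Snrpn ran closest to Tcp1 (0.92) and Isca1 (0.914), Ube3a to Pura (0.943) and Bmpr2 (0.936), and Mkrn3 to Pop7 (0.608). Over all 66 libraries Ube3a ran closest to Gm38393 (0.874).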

How the data were processed

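Poly(A) RNA was sequenced in paired ends, and per the labels and the paper's methods the authors trimmed reads with Trim Galore, aligned them with STAR to GRCm38 and estimated expected counts and TPM with RSEM. The annotation version is not given in the sources used here. The deposited expected counts (5.07% of values not whole) were rounded. The deposited TPM values, which the authors' RSEM run scaled for length and depth, were used for levels only. Symbols were joined for 41407 of 45706 identifiers from a later annotation, and GRCm38 positions for 31197 from RefSeq GRCm38.p6. Total counts were 32889755 to 59120536 (median 42391892), and low counts limited Magel2 and Mkrn3 most.

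Groups were compared within a tissue by the quasi-likelihood test of edgeR 4.0.16 under R 4.3.3, after filterByExpr and TMM scaling, adjusted by Benjamini-Hochberg over all genes tested, with calls at 0.05. The interaction of tissue and genotype was fitted on brain and cord together. DESeq2 1.42.0, its size factors, no low-count filter, labelled sex, all groups of a tissue in 1 fit, the replicate block and each left-out replicate were alternatives. Scripts were tested on simulated data. The planned tests of Ndn between strains and between C57BL/6J tissues are given without a p, because they use the libraries behind the choice. P-values measure the spread between mice of a group. Members and lists were chosen with earlier results of these data known. Genes named are the members, list members called, called genes within 2 Mb (by name where mutants or strains were compared), and the 5 most correlated genes per member (prior count 2). Some genes that this rule names are not reported here.

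Same-numbered samples deviated together in every pair, at 0.12 to 0.24, in h1 brain alone, and the other comparisons between mice did not meet that rule. Tissue comparisons pair by animal from the labels (12 pairs, −0.06 to 0.19), and the block changed no call in them.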

Additional observations from a re-analysis of the deposited data

How the results depend on the processing

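Against strain controls, the count of members passing the test was 0 of 55 and became 3 with DESeq2, 3 with no low-count filter and 1 with the replicate block, all of them Ube3a in spinal cord (h1, h2 and h4; h2 alone under the block, at −0.19, adjusted p = 0.0156). The cause was not tested. Leaving out single replicates gave 0 to 1. The counts against h1 (0 of 24) and for the interaction (0 of 20) were the same under all alternatives run. Between strains 2 of 8 and between tissues 7 of 16 tests of the neighbours passed, as many as with DESeq2. Where same-numbered samples are paired by a block, no other call changed. Of 2085 values of single genes, 2047 were counted as unchanged. For tested values this meant the same side of the threshold, and it includes 102 changes of sign between values that were not called. For Ndn in mutants, in brain and cord, it meant a move of at most the SE, or a change of sign of an estimate below its SE. Of the rest, 0 called values reversed, 16 lost and 14 gained the call and 8 moved further. Summing Snrpn with Snurf and Gm38393, chosen after seeing the data, changed no count. Low counts limit Magel2 in cerebellum and Mkrn3 throughout.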
